A study of Mus musculus with 185 samples.

Results

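The cells described are Tcf21 lineage-traced cardiac fibroblasts in 2 states, 44 activated cells from the infarct region and 17 resident cells from uninjured hearts. They were chosen by the class in their labels and make up 61 of the 185 single cells of the series. Both states come from Tcf21MCM/+; R26-eGFP mice of strain C57BL/6 (backcross N=6), given as about 5 months of age, in which a tamoxifen-inducible Cre at the Tcf21 locus turns on eGFP for good in the cells that express Tcf21 at that time. The activated cells were taken 7 days after myocardial infarction (MI) and the resident cells from hearts labelled uninjured, all were sorted as negative for CD31 and CD45, and the paper states 3 mice for each group. The trace marks cells by what they expressed when tamoxifen was given, and it does not mark fibroblasts in which recombination failed. By the date-like prefix of the cell names, all 17 resident cells belong to one capture and all 44 activated cells to another, so the state and the capture cannot be told apart.

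Resident cardiac fibroblasts keep the interstitial matrix between heart muscle cells and share a set of genes for lipid transport, detoxification and secreted regulators. After an infarct they proliferate, move into the wound and become myofibroblasts, which make collagen, cross-link it, anchor it through integrins and, in part, build the actin fibres of smooth muscle. Secreting that much protein needs the endoplasmic reticulum, where collagen chains are folded and hydroxylated, and the energy to run it. The question the comparison addresses is which genes are gained and which are lost, over the whole table of 17171 genes, when a Tcf21-traced cell goes from the resident to the activated state.

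The deposited values are log2 (TPM+1), with transcript abundances that add up to one total in every cell. Depth is not given for a cell, and the number of genes above 5 TPM, the minimum of the study's methods, stands in for it. In the activated cells that number ran from 1815 to 5023 with a median of 3134, and in the resident cells from 1862 to 2887 with a median of 2264. More genes than in any resident cell were detected in 28 of the 44 activated cells. Since no label ties a cell to a mouse, each class counts as 1 sample. A difference is the activated class mean minus the resident class mean in log2 units, and the SD is the spread between cells. No difference has a replicate check, and no statistical test between the classes was run.

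Most of the genes called were higher in the activated cells, which also had more genes detected. There were 5153 genes above 5 TPM in at least 25% of the cells of either class. Of these, 745 (14.5%) were higher in the activated cells by over 2 log2 units and 72 (1.4%) were lower by over 2. When each gene's values were shuffled between the cells, more than 72 genes were called, counting both directions together. How many of those were lower is not given, so the count is not a like comparison for the 72. Each gene was shuffled on its own, which does not keep the gene number of a cell, so the count judges neither the 72 nor the 745. The median difference over the 5153 genes was 0.907 and not 0, so a gene list with a median near 0.907, or with a share of higher genes near 14.5%, moved no more than the table. Counted from that median, a step chosen after seeing the data, 199 genes (3.86%) were over 2 above it and 299 (5.8%) over 2 below it. In the cells of the shared range of gene numbers, 14 activated and all 17 resident cells, 4007 genes were compared, of which 324 were higher and 224 lower, and the higher genes made up 59.1% of those called in place of 91.2%. Of the 745 higher genes 265 were called higher there too, and of the 72 lower genes 62 were called lower. The difference was larger than the SD between the cells of both classes for 78 of the 745 and for 11 of the 72.

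**Figure D1:**
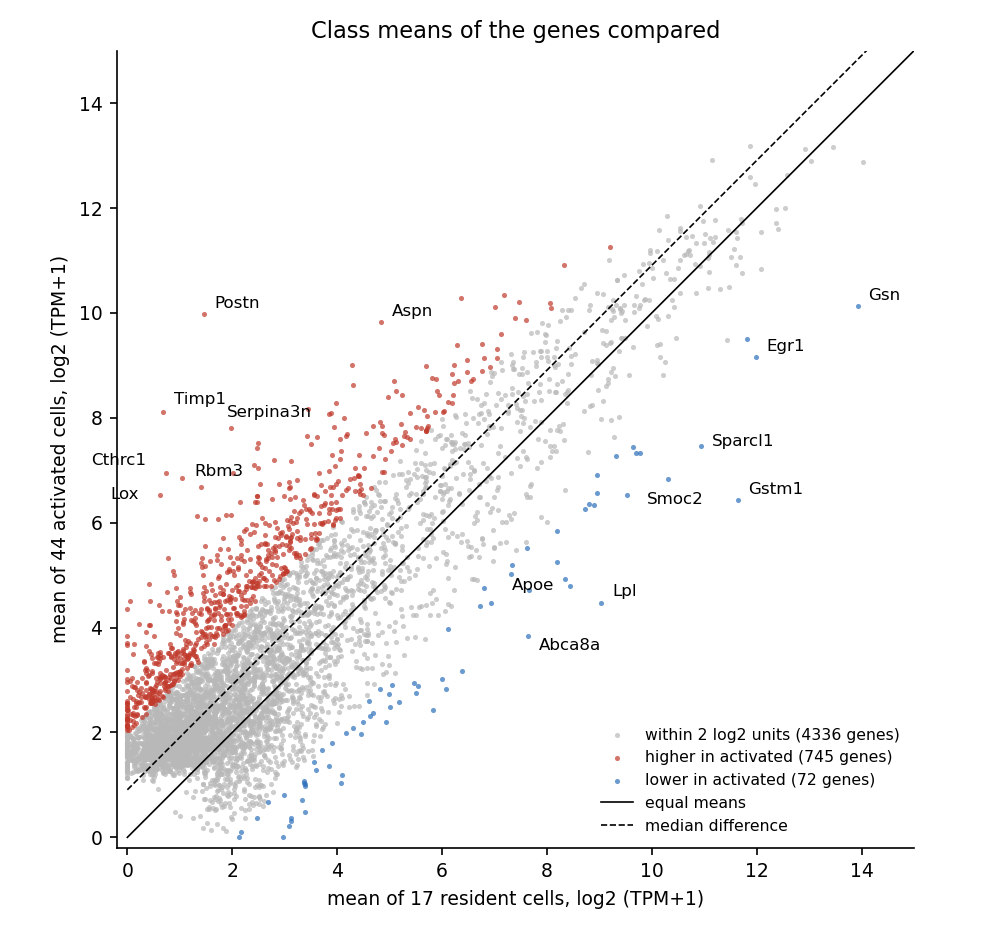
Mean log2 (TPM+1) in the 17 resident cells (horizontal) and the 44 activated cells (vertical) for the 5153 genes compared, with 745 genes over 2 log2 units higher in the activated cells in red and 72 lower in blue. The dashed line lies 0.907 above the solid line of equal means, and most genes lie above the solid line.

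Postn led the gain. It encodes periostin, a matricellular protein that binds collagen and is the myofibroblast gene on which the study is built. In the activated cells its log2 (TPM+1) had a lowest value of 0, a median of 11.39 and a highest value of 13.66, and in the resident cells the values were 0, 1.31 and 3.55. The classes overlapped, since 38 of the 44 activated cells were above every resident cell and the other 6 were not. Resident Tcf21-positive cells with Postn form a class of their own in the labels (3 cells of the same capture), so the low resident values follow in part from the classing, and with these 3 cells added the difference was 7.47. The difference was 8.51 over all cells and 5.81 in the cells of shared gene numbers.

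Next came Timp1, an inhibitor of matrix metalloproteinases, which rose by 7.41. Its median was 9.64 in the activated cells (range 0 to 13.06) and 0 in the resident cells (range 0 to 8.89), and it was above 5 TPM in 37 of 44 and in 2 of 17 cells. Cthrc1, a secreted protein of injured arteries and fibrotic tissue, rose by 6.21, from 1 of 17 resident cells to 31 of 44 activated cells. Lox, the lysyl oxidase that starts the cross-linking of collagen and elastin, rose by 5.92, with a median of 7.76 (range 0 to 10.81) in the activated cells and of 0 (range 0 to 8.30) in the resident cells.

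The other 11 of the 15 largest rises spread over several jobs. Serpina3n, a secreted inhibitor of serine proteases, rose by 5.83 and Mmp14, a membrane-bound matrix metalloproteinase, by 4.68. Aspn, the small leucine-rich proteoglycan asporin, rose by 4.99 and was above 5 TPM in 43 of 44 activated and 8 of 17 resident cells. Ctgf, a matricellular target of TGF-beta and of mechanical signals, rose by 5.03, and the actin-linked genes Csrp2 and Actn1 by 5.27 and 4.93. Rbm3, a cold-inducible RNA-binding protein, rose by 5.81, and Plp2, a membrane protein, by 4.94. Pgk1, a glycolytic enzyme, rose by 4.80, Usmg5, a small subunit of the mitochondrial ATP synthase, by 4.72, and Sec61a1, the channel through which new secreted proteins enter the endoplasmic reticulum, by 4.71. In the cells of shared gene numbers the differences of all 15 were still over 2, from 2.55 for Csrp2 and 2.82 for Cthrc1 to 5.80 for Rbm3 and 5.81 for Postn. With means of TPM 12 of the 15 were over 2, and Aspn (1.81), Sec61a1 (1.31) and Usmg5 (1.21) were not.

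**Figure D2:**
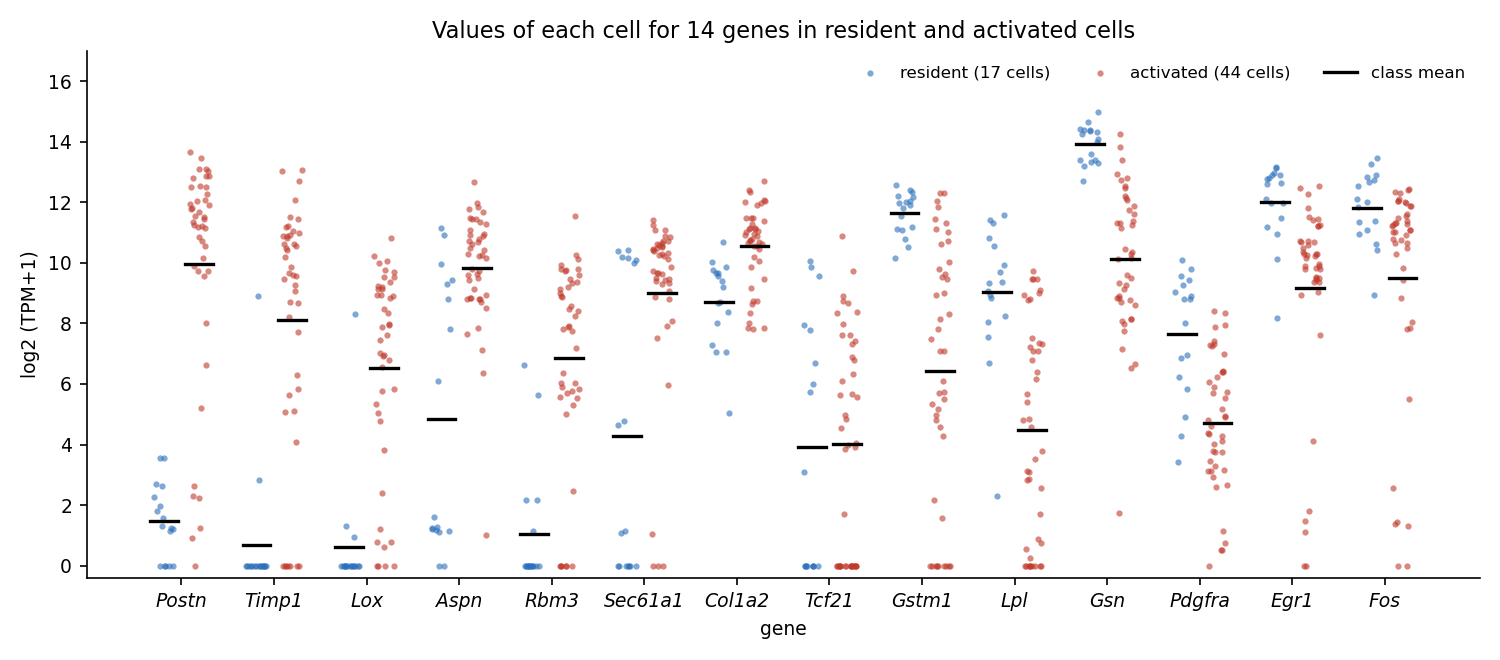
Log2 (TPM+1) of 14 genes in each of the 17 resident cells (blue) and 44 activated cells (red), with the class mean as a bar. Postn, Timp1 and Lox are low in most resident cells, Gstm1 and Gsn are high in all resident cells and spread widely in the activated cells, and the class means of Tcf21 differ by 0.08.

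The promoter of Postn is shown because Postn led the gain. It comes from the RefSeq promoter table (build GRCm38.p6) and covers the 250 bases before the start, chr3:54360857-54361106 on the plus strand, 5′ to 3′, with the letters TATAAA in capitals, which begin 26 bases before the start.
Postn: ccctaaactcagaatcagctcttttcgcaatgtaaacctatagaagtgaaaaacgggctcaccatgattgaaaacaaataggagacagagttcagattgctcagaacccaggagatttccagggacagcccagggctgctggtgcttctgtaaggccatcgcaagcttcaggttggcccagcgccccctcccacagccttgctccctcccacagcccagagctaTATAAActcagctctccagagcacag
Of 34 matrix genes called higher, 20 had an entry there, with 24 promoters. TATAAA, searched on the strand of the gene, was in 3 of the 24 promoters (12.5%), those of Postn, Aspn and Crtap, against 4.43% of the 14476 promoters of the genes in the table and 7.59% of all 32851. The match begins 207 bases before the start in Aspn and 136 in Crtap, far from that of Postn. GGAATG or its reverse CATTCC, the letters of the TEAD motif, was in 1 (4.17%), that of Mfap2, against 11.1%. Neither TGACGTCA nor TGANTCA nor the CArG box, each of which reads as the same motif on both strands, was found in the 24. These are matches of letters in one window and no measure of binding.

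Fibril-forming collagen genes had a median above that of all genes, over all cells and in the cells of shared gene numbers. Of 7 fibril-forming collagen genes compared, 2 rose, Col5a1 by 2.84 and Col5a2 by 2.78, both chains of type V collagen, which seeds and sizes collagen fibrils, and Col5a3 fell by 2.09. The median of the 7 was 1.85, against 0.907 over all genes, and 1.13 against 0.222 for the same 5153 genes in the cells of shared gene numbers. Col1a2, a chain of type I collagen and the most abundant of them, was above 5 TPM in all 61 cells, with a median of 10.83 (range 7.82 to 12.71) in the activated cells and 9.20 (range 5.05 to 10.67) in the resident cells. Its difference of 1.85 was larger than the SD of either class, 1.33 and 1.43, and it is not among the genes called. The summed TPM of the fibril-forming collagens had a median of 4959 per activated cell and 1430 per resident cell. Among 10 microfibrillar, network-forming and fibril-associated collagens 3 rose, Col12a1 by 2.56, Col8a1 by 2.53 and Col14a1 by 2.07, and 2 fell, Col15a1 by 2.52 and Col6a6 by 2.13, and the median of 1.08 was above or below that of all genes depending on the alternative.

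Most basement membrane genes were not called, like most of all genes compared, of which 14.5% were higher and 1.4% lower. Of 14 compared, 1 rose, Col4a2 by 2.34, and 1 fell, Col4a4 by 2.76, from 8 of 17 resident to 3 of 44 activated cells. Both encode chains of type IV collagen, the network of basement membranes, but of different trimers. The median of the 14 was -0.57 against 0.907 over all genes. It lay below the median of all genes in each alternative, and was above 0 in one of them, with the 12 resident cells labelled Postn-, CD31- and CD45- in place of the resident class. The summed TPM of the list had a median of 10409 per activated cell and 5284 per resident cell. Sparc, a collagen-binding protein and the most abundant of the list, had a difference of 1.76, with 32 of 44 activated cells above every resident cell.

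The list of matricellular proteins, which signal from the matrix, and fibronectin split. Of 16 compared 7 rose, and besides Postn, Cthrc1 and Ctgf these were Fn1 (4.57), Wisp2 (4.42), Wisp1 (2.37) and Thbs2 (2.05). Fn1 is fibronectin, the provisional matrix of wounds. The 3 that fell were Sparcl1 by 3.48, Smoc2 by 3.46 and Tgfbi by 2.61. Sparcl1, a relative of Sparc, had a median of 11.07 (range 8.87 to 12.23) in the resident cells and of 9.17 (range 0 to 12.59) in the activated cells. The median of the list was 1.86.

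Elastic fibre genes rose in 7 of 16, with a median of 1.47, above that of all genes except at a pseudocount of 0.1. Ltbp2, a microfibril protein, led them with a rise of 4.46, from 0 of 17 resident cells to 27 of 44 activated cells, and Efemp2, Emilin1, Fbln2, Eln, Mfap4 and Mfap2 followed with 3.41, 2.90, 2.78, 2.64, 2.49 and 2.11. The related Ltbp4, which binds latent TGF-beta, went the other way and fell by 2.44. Ltbp2 had a mean of 4.51 ± 3.83 (SD, n = 44 cells) against 0.05 ± 0.21 (SD, n = 17) and Ltbp4 of 6.36 ± 2.33 against 8.81 ± 0.93. Ltbp4 stayed above 5 TPM in 40 of 44 activated cells, and its difference was -0.87 with the activated cells that hold a Y-linked gene and no Xist.

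Of 24 genes that modify, fold, trim or cross-link collagen, 9 rose and none fell, with a median of 1.74 (0.67 in the cells of shared gene numbers). After Lox came Fkbp7 (3.51), a prolyl isomerase, Plod2 (2.94), the lysyl hydroxylase of collagen telopeptides, and P4hb (2.85), the subunit shared by prolyl hydroxylases, which is also protein disulphide isomerase. P4ha2, P4ha3, Crtap, Leprel2 and Adamts2 rose by 2.05 to 2.53. The list is not of one piece, since Pcolce, an enhancer of procollagen cleavage and its most abundant gene, was 10.65 ± 0.96 in the activated and 10.34 ± 1.57 in the resident cells, and Plod1 had a difference of -0.95, which was -2.96 in the cells of shared gene numbers and 1.07 with the 12 resident cells labelled Postn-. Of 16 proteoglycan genes 5 rose, led by Aspn and by Gpc1 (3.38), a membrane-anchored heparan sulphate proteoglycan, with Sdc4 (2.64), Vcan (2.60) and Sdc1 (2.17), and Ogn fell by 2.04, though its difference was 0.43 with the Postn-traced cells and 0.20 with the 12 resident cells labelled Postn-. The median of the proteoglycans was 0.19, below the 0.907 of all genes and below 0 in some alternatives, and their most abundant gene was Dcn, decorin, with 12.87 ± 1.26 in the activated and 14.02 ± 0.42 in the resident cells.

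Genes of the secretory machinery were among those that rose. Of 65 genes of the endoplasmic reticulum and of vesicle traffic 31 rose and none fell, and 55 were above the median of all genes. Widely detected genes had a higher baseline. Of 2349 genes above 5 TPM in at least 50% of the cells of either class, 585 were higher, with a median of 1.179. The summed TPM of the 66 genes listed had a median of 24145 per activated cell and 15256 per resident cell. The list median was 1.88, and 0.93 against 0.222 in the cells of shared gene numbers, where 13 were called higher. The rises included the translocon (Sec61a1, 4.71; Ssr2, 4.21), the oligosaccharyl transferase that adds sugars (Ddost, 4.07; Ostc, 3.90; Rpn2, 3.48), disulphide formation (Pdia6, 4.33), the stress-induced factor Manf (3.92), the transcription factor Xbp1 of the unfolded protein response (3.04) and the coats of transport vesicles (Cope, 3.10; Copb2, 3.04; Sar1a, 3.02). Sec61a1 was split in the resident cells, with a median of 1.16 and a highest value of 10.43, while 40 of 44 activated cells were above 5 TPM, with a median of 9.98. Hsp90b1, the chaperone that is the most abundant gene of the list, had means of 10.15 ± 0.81 and 9.78 ± 1.27, and it was not called.

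Some energy and protein turnover genes rose too. Of 76 nuclear-encoded subunits of oxidative phosphorylation 30 rose and none fell, with a median of 1.69, led by Atp5g2 (4.41) of the ATP synthase, Ndufb6 (4.27) of complex I and Cox5a (4.24) of cytochrome oxidase. Of 14 glycolytic genes 7 rose (median 1.78), among them Pgk1, Eno1 (3.15) and Tpi1 (3.02), while Gapdh, the most abundant, had a difference of -0.13. Of 30 proteasome subunits 13 rose (median 1.80), led by Psma2 (3.45), and none fell. Psmb10, a subunit of the immunoproteasome, had a difference of -1.63. In the cells of shared gene numbers the medians of these 3 lists were 0.94, 0.89 and 0.67, with 12, 3 and 3 genes called higher. Summed TPM per cell had medians of 30847 (activated) and 26830 (resident) for oxidative phosphorylation and 5778 and 3841 for glycolysis. For the proteasome they were 7531 and 7274, so the list medians are not changes of the summed level. Ribosomal protein genes, of which 81 were compared, had a median of 0.888, above or below that of all genes depending on the alternative. Of these 7 rose, a share below the 14.5% of all genes.

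**Figure D3:**
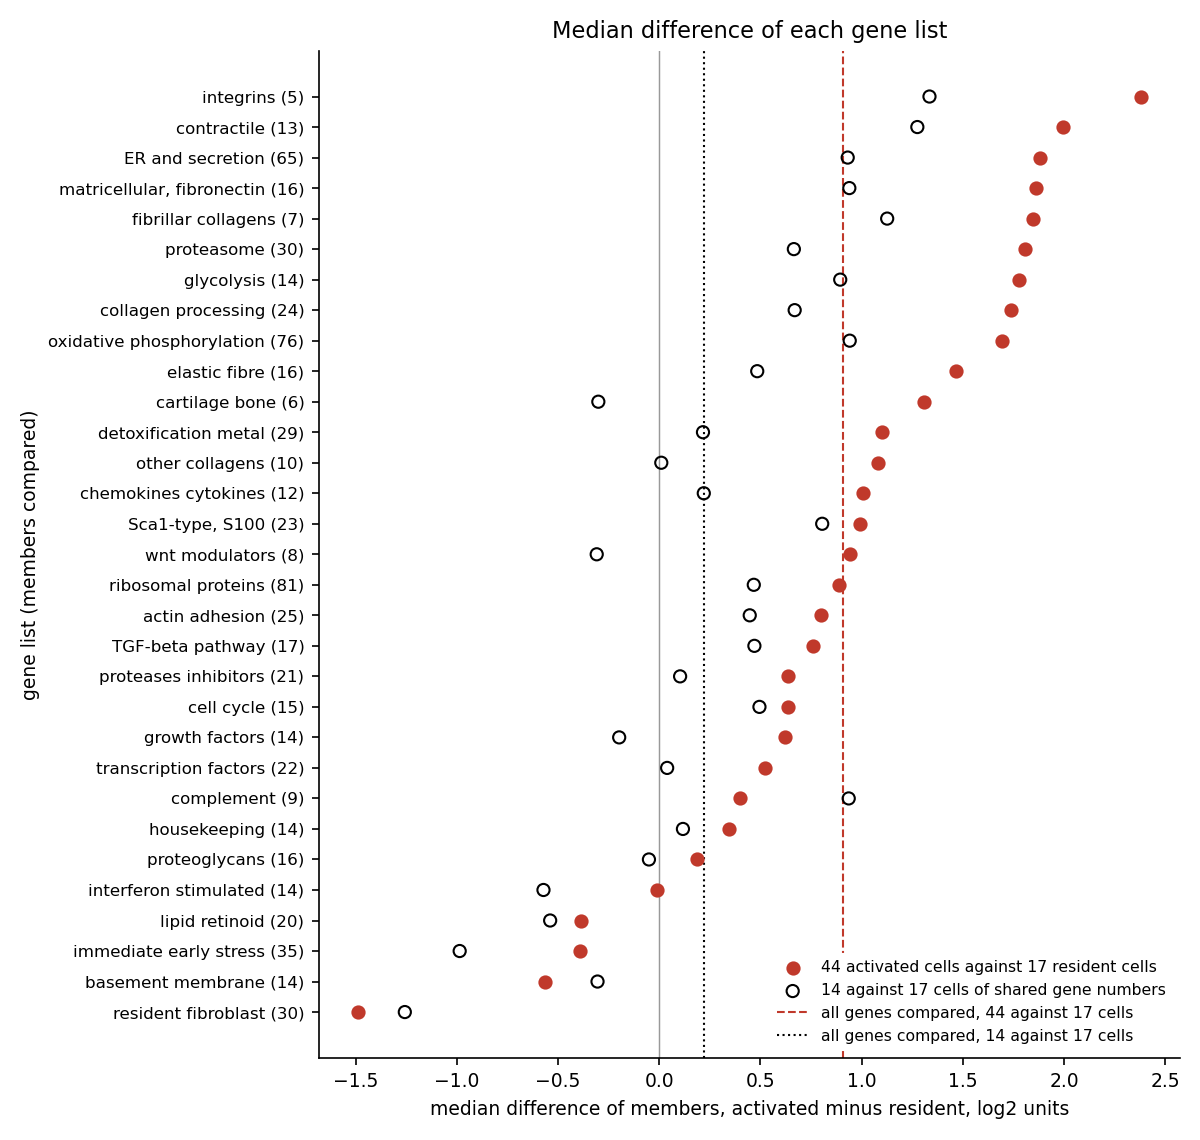
Median difference, activated minus resident, in log2 units for each gene list with at least 5 genes compared, over all 44 and 17 cells (filled) and over the 14 and 17 cells of shared gene numbers (open). The dashed and dotted lines are the medians of all genes, 0.907 and 0.222, and the list of resident fibroblast genes lies lowest at -1.49.

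Some contractile genes rose. Of 13 compared 6 rose and none fell, 12 of the 13 were above the median of all genes, and the list median was 1.28 in the cells of shared gene numbers. Tagln, the actin-binding protein SM22 of smooth muscle, rose by 3.62, Cnn3 by 2.99, Tpm4 and Acta2 by 2.59 and Cnn2 by 2.22. For Acta2 the difference was 1.28 in the cells of shared gene numbers and 0.15 with the activated cells that hold a Y-linked gene and no Xist. Myl6, a light chain found with smooth muscle and non-muscle myosin and the most abundant of the list, rose by 2.04. Tagln and Acta2 were both above 5 TPM in 15 of the 44 activated cells, 1 of them in 15 more and neither in 14. Myh11, the myosin heavy chain of mature smooth muscle, was not above 5 TPM in any of the 61 cells. Among 25 genes of the actin cytoskeleton and focal adhesions 3 rose, a share below the 14.5% of all genes, Actn1, Pdlim7 (2.59) and Flna (2.17), and the median was 0.80, above or below that of all genes depending on the alternative. Actb was 13.12 ± 0.62 in the activated and 12.92 ± 0.60 in the resident cells.

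Of 5 integrin subunits compared 3 rose: Itgav by 2.68, Itgb5 by 2.53 and Itga5 by 2.38. Itgav and Itgb5 pair as a receptor that binds vitronectin and can release TGF-beta from its latent complex, and Itga5 pairs with Itgb1 as the fibronectin receptor. Itgb1 itself, the most abundant, had a difference of 1.64, and Itga11, a collagen receptor subunit, of -0.09. In the cells of shared gene numbers none of the 5 was over 2 apart, and Itgav was at 1.34. Among 17 genes of the TGF-beta pathway 2 rose, a share below the 14.5% of all genes, among them the ligand Tgfb3 (2.60), and the median was 0.76, above or below that of all genes depending on the alternative. Of 21 proteases and inhibitors 4 rose, Timp1, Serpina3n, Mmp14 and Adam9 (2.59), and the median was 0.64, above or below that of all genes depending on the alternative.

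On the side of loss, the list of resident fibroblast genes held the most falls. Of 30 genes known from unstimulated cardiac fibroblasts, all 30 compared, 13 fell, none rose and 4 had a difference above 0, with a median of -1.49 against 0.907 over all genes. The median lay between -2.40 and -0.59 over all alternatives, and in the cells of shared gene numbers it was -1.26, with 11 genes called lower and 1 called higher. Their summed TPM had a median of 25033 per activated cell and 64538 per resident cell. The list includes genes that earlier results of these data had shown to fall, so its direction is a description.

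Gstm1, a glutathione transferase that neutralises reactive compounds, fell most. Its median was 11.91 in the resident cells (range 10.17 to 12.55) and 7.08 in the activated cells (range 0 to 12.30), it was above 5 TPM in 17 of 17 and in 33 of 44 cells, and it fell by 5.20. Of the 44 activated cells 34 were below every resident cell. Gsn, gelsolin, which cuts actin filaments and also occurs as a secreted form, was the gene with the highest resident level among the 15 largest falls. It stood at 13.93 ± 0.62 (SD, n = 17), the resident cells lay between 12.71 and 14.98, and the activated cells between 1.75 and 14.27, with 38 of 44 below every resident cell.

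Several of the lost genes handle lipid. Lpl, the lipoprotein lipase that frees fatty acids from circulating fat, fell by 4.57, with a median of 9.34 (range 2.30 to 11.59) in the resident cells and 4.69 (range 0 to 9.72) in the activated cells. Abca8a and Abca9, neighbouring transporters of one subfamily, fell by 3.80 and 2.33, Apoe, the lipid carrier apolipoprotein E, by 3.65, and Hsd11b1, which regenerates active glucocorticoid, by 2.32. Over the list of 20 lipid and retinoid genes 5 fell and 2 rose, Scd2 (2.41), a desaturase of fatty acid synthesis, and Dhrs3 (2.14), with a median of -0.39, which was above 0 with cells centred on their own median and with the 19 untraced cells. Apoe overlapped throughout, and no activated cell was below every resident cell, since 3 of the 17 resident cells were themselves not above 5 TPM.

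The rest of the resident set is made of secreted and surface proteins. Pdgfra, the PDGF receptor that marks resident fibroblasts, had a median of 8.79 in the resident and 4.71 in the activated cells and stayed above 5 TPM in 39 of the 44, so its fall of 2.95 was one of level. Smoc2 fell by 3.46, Sepp1, a plasma selenium carrier, by 2.37, Scara5, a ferritin receptor, by 2.30, Pi16, a mark of adventitial fibroblasts, by 2.14 (-1.87 in the cells of shared gene numbers and 0.51 with the activated cells that hold a Y-linked gene and no Xist), Entpd2, which splits extracellular ATP, by 2.10, and Clec3b, tetranectin, by 2.05. Col15a1 and Ltbp4, named above, fell with them. Outside the lists, Crispld2, a secreted protein, fell by 3.41, Fxyd1, a regulator of the sodium pump, fell from 9.53 to 6.53, Tapbpl, which edits peptides on MHC class I, fell by 3.04, Trim6, a ubiquitin ligase, by 3.40 and Plac9b, a small secreted protein, by 2.95. The transcripts listed as AK190531, AK196015 and AK136190 fell by 3.24, 3.20 and 2.98. All 15 of the largest falls were over 2 in the cells of shared gene numbers as well, but 6 of the 15 with means of TPM, 10 with the Postn-traced cells and 13 with the activated cells that hold a Y-linked gene and no Xist. Only 6 of the 15 exceeded the SD of both classes, against 14 of the 15 largest rises.

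Tcf21, the gene of the trace and a transcription factor of fibroblast fate, had class means 0.08 apart, a difference that ran from -1.54 to 1.40 over the alternatives and changed sign among them. It was above 5 TPM in 26 of 44 activated cells (59.1%, exact 95% Clopper-Pearson interval 43.2% to 73.7%) and 9 of 17 resident cells (52.9%, interval 27.8% to 77%), with medians of 4.29 and 3.10. These intervals, like those below, cover counting error only. Of 22 transcription factors compared 2 rose, a share below the 14.5% of all genes, and none fell. Runx1, a regulator of blood and bone fate, rose by 3.64, from 1 of 17 to 26 of 44 cells, though by 1.13 in the cells of shared gene numbers, and Foxp1 rose by 2.70. Klf4, the most abundant of the list, had a difference of -1.44. The median of the list was 0.52, above or below that of all genes depending on the alternative.

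Several immediate early genes fell. Of 35 immediate early, heat shock and dissociation response genes 9 fell and 3 rose, with a median of -0.39 (-0.99 in the cells of shared gene numbers, where 12 were called lower). The 9 were Egr1 (-2.84), Jun (-2.56), Btg2 (-2.46), Zfp36 (-2.45), Fosb (-2.38), Fos (-2.31), Socs3 (-2.22), Dusp1 (-2.20) and Junb (-2.05). These genes respond within minutes to serum, stress and the enzymes that free cells from tissue, and the preparation of the hearts was part of each capture, so a difference in handling and one in state cannot be told apart. The resident cells were uniformly high, with Fos between 8.94 and 13.45 and Egr1 between 8.19 and 13.16. The activated cells had a median of 11.05 for Fos and 10.19 for Egr1, with a tail down to 0. In the cells of shared gene numbers the differences of Fos and Egr1 were -4.40 and -4.30, but -0.86 and -1.10 with the activated cells that hold a Y-linked gene and no Xist. The 3 that rose were Gadd45g (3.35, but -1.25 with means of TPM), Ier3 (2.91) and Hspb1 (2.31). The median of the list was above 0 in 2 alternatives, with cells centred on their own median and with the activated cells that hold a Y-linked gene and no Xist, and below the median of all genes in each.

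The promoters of 3 of the fallen genes are shown because they hold the elements through which immediate early genes are known to answer signals, the cAMP response element (CRE) TGACGTCA and the CArG box of serum response factor. All are 250 bases before the start from the same RefSeq table, 5′ to 3′, with the motif in capitals. Btg2 (chr1:134079156-134079405 on the minus strand) and Dusp1 (chr17:26508473-26508722 on the minus strand) hold the CRE, beginning 166 and 143 bases before the start, and Zfp36 (chr7:28379229-28379478 on the minus strand) the CArG box, beginning 58 bases before it.
Btg2: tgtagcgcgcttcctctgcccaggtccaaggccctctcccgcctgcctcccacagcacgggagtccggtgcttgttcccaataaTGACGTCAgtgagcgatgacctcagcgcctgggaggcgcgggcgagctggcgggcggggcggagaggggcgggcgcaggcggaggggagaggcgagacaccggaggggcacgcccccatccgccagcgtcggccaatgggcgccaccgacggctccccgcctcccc
Dusp1: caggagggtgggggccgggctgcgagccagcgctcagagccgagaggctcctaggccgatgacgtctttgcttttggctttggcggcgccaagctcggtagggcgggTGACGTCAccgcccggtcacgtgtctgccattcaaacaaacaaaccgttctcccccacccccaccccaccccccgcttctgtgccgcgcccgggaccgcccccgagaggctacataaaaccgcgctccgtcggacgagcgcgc
Zfp36: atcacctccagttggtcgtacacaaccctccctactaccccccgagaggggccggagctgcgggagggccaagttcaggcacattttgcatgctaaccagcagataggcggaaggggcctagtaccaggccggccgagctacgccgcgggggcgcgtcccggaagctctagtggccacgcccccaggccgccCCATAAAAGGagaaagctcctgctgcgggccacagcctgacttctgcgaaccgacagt
Of the 9 fallen genes 8 had an entry, with 8 promoters. The CRE was in 2 of the 8 against 2.4% of the 14476 promoters, and the CArG box in 1 (12.5%) against 1.2%. TATAAA was in 1, that of Fos, and the AP-1 letters TGANTCA, in 0 of the 8 against 5.17%. With 8 promoters these are counts and no comparison.

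Signals and immune genes changed in single members. Ccl2, a chemokine that draws monocytes, was listed at 0 in all 17 resident cells and was above 5 TPM in 20 of 44 activated cells (45.5%, interval 30.4% to 61.2%), with a highest value of 14.07. Its difference was 1.43 in the cells of shared gene numbers, 0 with medians over cells and 9.87 with means of TPM. Of 12 chemokine and cytokine genes 3 rose, Ccl2 (3.84), the oncostatin M receptor Osmr (2.51) and the interleukin-1 receptor Il1r1 (2.19), and the median was 1.01, above or below that of all genes depending on the alternative. Of 8 Wnt genes 2 rose, the secreted modulators Sfrp2 (4.36) and Sfrp1 (2.35), with a median of 0.94, above or below that of all genes depending on the alternative, and Sfrp2 was listed at 0 in every resident cell and above 5 TPM in 24 of 44 activated cells. In growth factor genes 1 of 14 was called, Pdgfra, and the median was 0.62, above or below that of all genes depending on the alternative. Complement genes rose in 2 of 9, C1qtnf6 (3.91) and Cd59a (2.04). Their median was 0.40, above or below that of all genes depending on the alternative. Interferon-stimulated genes rose in 1 of 14, a share below the 14.5% of all genes, Isg20 (2.45), with a median of -0.01. The difference of Isg20 was 0 with medians over cells. In cell cycle genes 2 of 15 rose, a share below the 14.5% of all genes, Cdk4 (2.57) and H2afz (2.10). In the cells of shared gene numbers neither was over 2, with Cdk4 at 1.69 and H2afz at 1.41. The median of the list was 0.64, above or below that of all genes depending on the alternative, and 38 of the 53 listed were below the filter.

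Among the detoxification and metal genes 8 of 29 rose, led by the metallothionein Mt2 (3.57) and the peroxiredoxins Prdx6 (2.97) and Prdx4 (2.85), and 2 fell, the glutathione transferases Gstm1 and Gstt1 (-2.66). Gstm5 of the same family as Gstm1 rose by 2.81. The median was 1.10, above or below that of all genes depending on the alternative. Of 23 Sca1-type surface and S100 genes 7 rose, S100a4 (4.07), Ly6c1 (2.94), the hyaluronan receptor Cd44 (2.88), Anxa3 (2.64), S100a10 (2.63), Anxa2 (2.59) and Cd248 (2.31), and Pi16 fell, with a median of 0.99, above or below that of all genes depending on the alternative. Anxa2 and S100a10 form one complex at the membrane. Secreted cartilage and bone genes had none called among 6 compared, with a median of 1.31, above or below that of all genes depending on the alternative, and -0.30 in the cells of shared gene numbers. Among 14 reference genes Pgk1 alone rose, a share below the 14.5% of all genes, and the median was 0.34.

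By detection, 31 of the 17171 genes (0.181%) were gained, that is above 5 TPM in at least 50% of the activated and in at most 1 of the 17 resident cells. One gene (0.00582%) was lost by the mirrored rule, above 5 TPM in at least 50% of the resident and at most 2 of the activated cells. All 31 gained genes were also over 2 higher. They were above 5 TPM in 22 to 35 activated cells, Lox in the most, and in no resident cell for 6 of them: Ltbp2, Gpc1, Sfrp2, Ddah1, Chchd3 and Ppa1. Gains with a known role in matrix or signalling are Cthrc1, Lox, Ltbp2, Wisp2, Sfrp2, Gpc1, Cd44, Tagln, Runx1 and Hif1a, the oxygen-regulated transcription factor, which was above 5 TPM in 26 of 44 and 1 of 17 cells. Others belong to secretion and to protein modification: Ganab, which trims glycans in the endoplasmic reticulum, Ykt6 and Vamp5 of vesicle fusion, Clta of clathrin coats, and Ufm1 and Ufsp2, a small modifier and its protease. In the cells of shared gene numbers 12 genes were gained, and 4 of these, Lox, Hif1a, Pdlim1 and S100a4, are among the 31.

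The lost gene, Rapgef4, is an exchange factor for Rap that is activated by cAMP. It was above 5 TPM in 9 of 17 resident cells (52.9%) and in none of 44 activated cells, which allows a share of up to 8.04%. It was above 5 TPM in 12 of the 27 Postn-traced and 8 of the 24 Postn-negative infarct cells, so it was not lost in every activated class. Its level was low in both states, with medians of 2.70 and 0.03 and a highest value of 3.83 in the resident cells, and its difference of -1.99 was just short of a call. The count of lost genes was 0 at a minimum of 20 TPM, and counting from 1 TPM, or from any detection at all, other genes took its place.

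Single cells differed in their mean over the leading genes. The mean log2 (TPM+1) over the 15 most risen genes ran from 2.74 to 10.11 in the activated cells, with a median of 8.14, and from 0.73 to 4.47 in the resident cells, with a median of 1.94. The genes were chosen for this difference, so the gap is a description. The interest is in the cells that go against it: 3 activated cells lay within the resident range, at 2.74, 3.61 and 4.25. These 3 had 1822, 2084 and 2214 genes above 5 TPM and Postn at 2.31, 0.93 and 2.22. Their means over the 15 most fallen genes, 6.47, 5.98 and 6.34, were still below the lowest resident cell at 7.46. Over those 15 fallen genes the activated cells ran from 1.10 to 7.65 with a median of 4.97, the resident cells from 7.46 to 10.13 with a median of 8.36, and 1 activated cell lay within the resident range.

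The gain followed the number of detected genes and the loss did less so. Across the 44 activated cells, the mean over the risen genes and the number of genes above 5 TPM had a Pearson correlation of 0.828 (Spearman 0.845), and the mean over the fallen genes of -0.319 (Spearman -0.407). Between the risen and the fallen genes it was -0.467 (Spearman -0.512). These are correlations over cells of one capture that share their source and a library preparation, and risen genes are themselves among the detected ones. In the 17 resident cells the Pearson correlations with gene number were 0.357 for the risen genes (Spearman 0.382) and -0.077 for the fallen genes (Spearman 0.039). The part of the gene number in the gain was not tested beyond the values for the shared range.

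**Figure D4:**
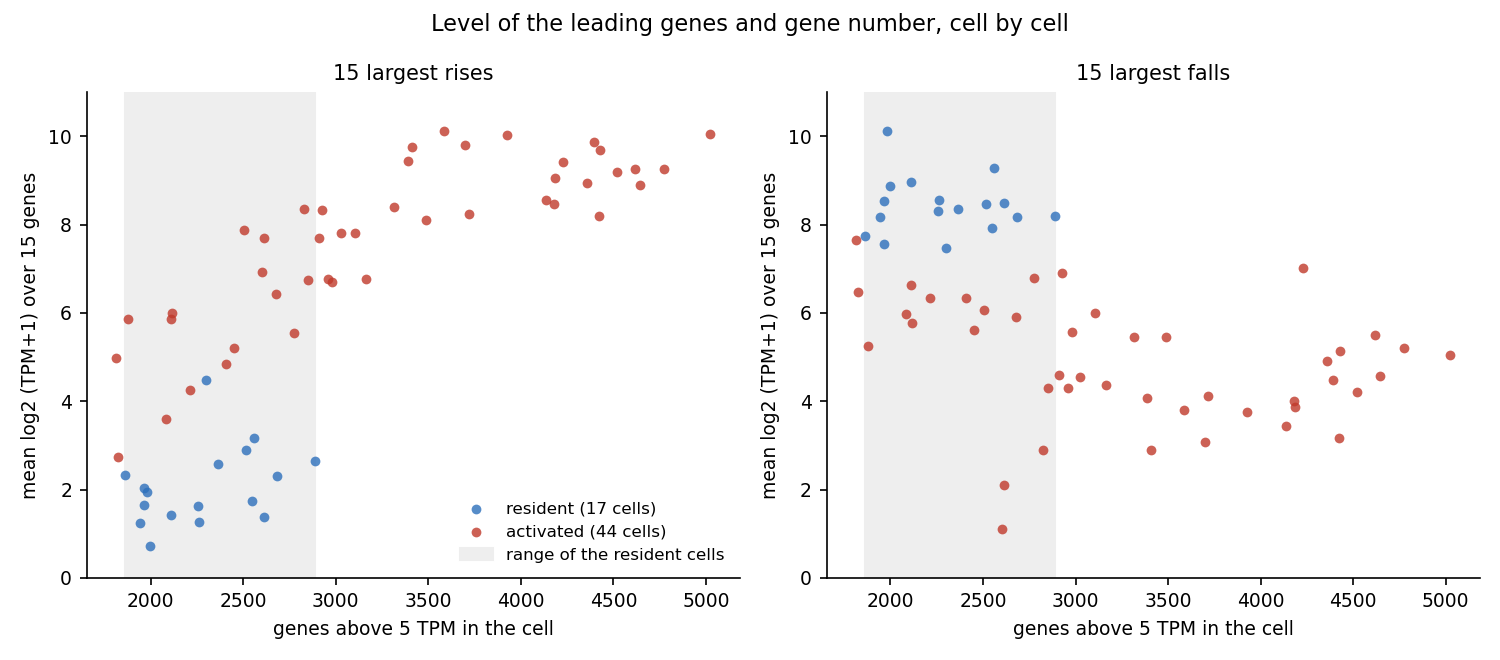
Mean log2 (TPM+1) over the 15 most risen genes (left) and the 15 most fallen genes (right) against the number of genes above 5 TPM, one point per cell, with the range of the resident cells shaded. Within the shaded range most activated cells lie above the resident cells on the left and below them on the right.

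The other classes of the series were not used to choose these genes and show where each set stands. The 12 double-negative resident cells (labelled Postn-, CD31- and CD45-, of the same capture as the resident Tcf21-traced cells) had a median of 2.46 over the risen and of 8.19 over the fallen genes, near the resident Tcf21-traced cells. Activated cells of the infarct traced by Postn (27 cells, another capture) had medians of 8.30 and 5.44, and the 19 untraced Postn-positive cells that shared the capture of the activated Tcf21-traced cells 8.73 and 4.69. The 24 Postn-negative cells of the infarct, which shared the capture of the Postn-traced cells, had 3.35 and 7.33, closer to the resident cells in both. Another 6 untraced Postn-positive cells of that capture had 5.36 and 7.12, the latter near the Postn-negative cells, and 3 more of the scar's capture had 8.48 and 2.75. The gene number of the 24 Postn-negative cells, with a median of 2342, was also near that of the resident cells. The Postn-traced cells had a median of 3643 and the 19 untraced cells of 3361. For the 6 and the 3 untraced Postn-positive cells of the other captures the medians were 2234.5 and 5179. No difference between these classes was tested, and all of them were classed in part by Postn, the first of the risen genes: the labels give Postn- for the 12 and the 24 cells and Postn+ for the 19 and the 27.

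The 31 gained genes were chosen on the activated and resident Tcf21-traced cells, so the gap between these classes follows from the choice. An activated Tcf21-traced cell held 2 to 29 of them, with a median of 18.5, and a resident Tcf21-traced cell 0 to 5, with a median of 1. The median was 4 in the 12 double-negative resident cells, 5.5 in the Postn-negative and 17 in the Postn-traced infarct cells, and 18 in the 19 untraced cells. The single genes differ in how far they hold. Runx1 was above 5 TPM in 21 of 27 Postn-traced and 1 of 24 Postn-negative cells, and Ltbp2 in 18 and 0. Rbm3, by contrast, was above it in 7 of 12 double-negative resident cells and 16 of 24 Postn-negative cells, against 2 of 17 in the resident Tcf21-traced cells. Apoe was above 5 TPM in 12 of the 12 double-negative resident cells but in 9 of 24 Postn-negative infarct cells. Gstm1 was kept in all 24 Postn-negative cells, at a mean of 11.35 ± 1.08.

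**Figure D5:**
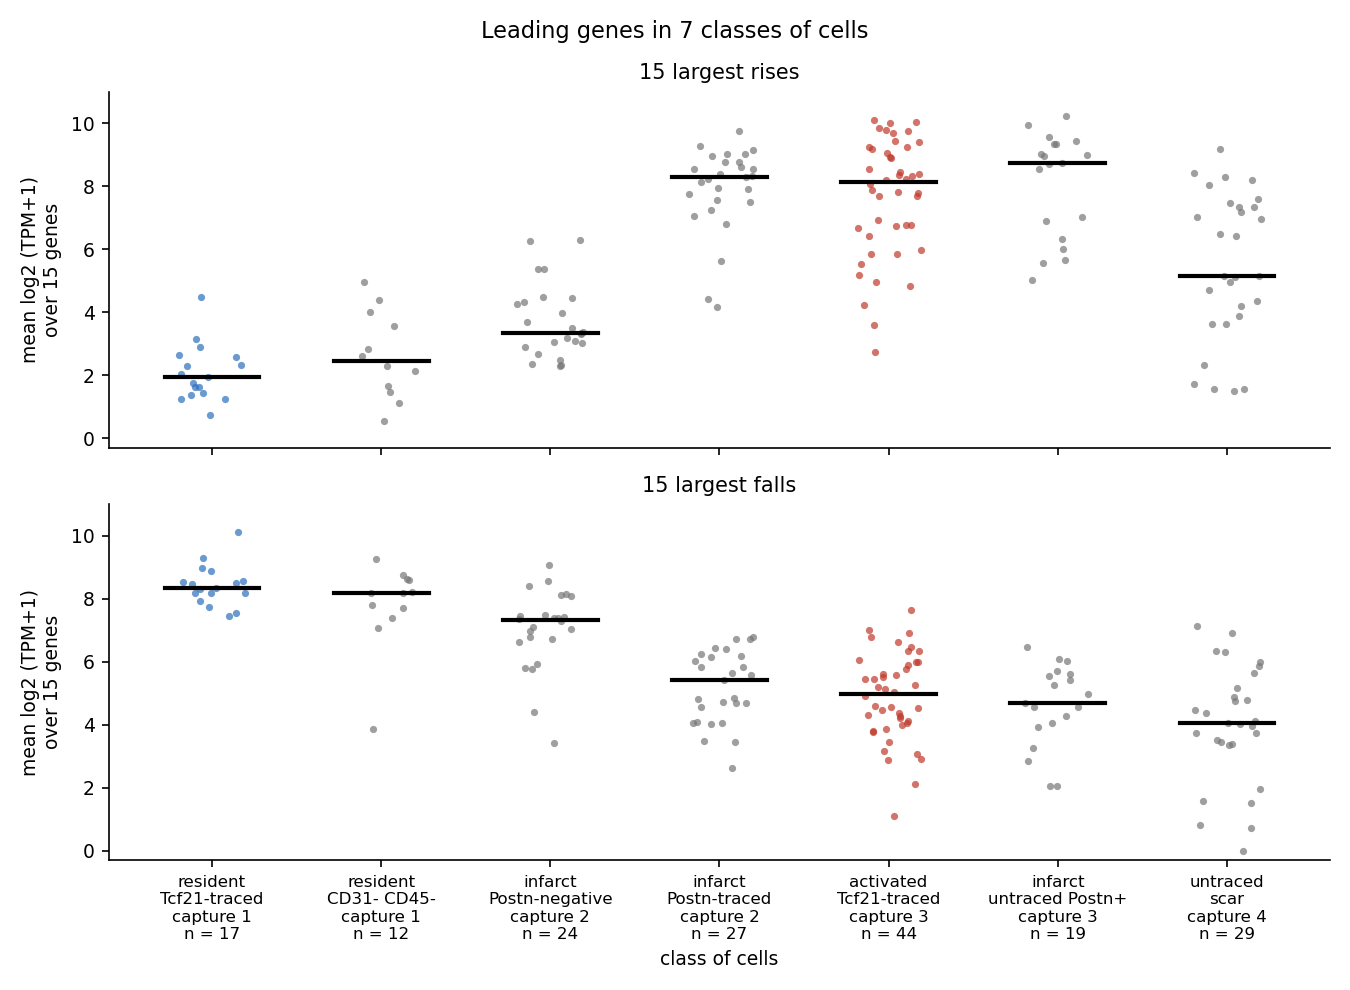
Mean log2 (TPM+1) over the 15 most risen genes (top) and the 15 most fallen genes (bottom) for each cell of 7 classes, with the median as a bar and the capture under each class. The Postn-traced infarct cells and the 19 untraced Postn-positive cells of the same capture as the activated Tcf21-traced cells lie near the latter, the untraced Postn-positive cells of other captures are not drawn, and the Postn-negative infarct cells nearer to the resident cells.

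Marker genes were read for the cell type. At least 3 of 6 fibroblast markers were above 5 TPM in all 44 activated and all 17 resident cells, and their summed TPM had a median of 14973 and of 25443, with Dcn most abundant. At least 3 markers of endothelial, myeloid, lymphoid, heart muscle, epicardial or Schwann cells were found in 0 of 44 cells, which allows a share of up to 8.04%, and in 0 of 17, up to 19.5%. Ptprc (CD45) and Kdr were listed at 0 in all 61 cells, while Cd68 was above 5 TPM in 3 resident cells and Pecam1 and Lyz2 each in 2 activated cells. The list for pericytes was reached by 1 activated cell, with a median summed TPM of 33.1 in the activated and 1.92 in the resident cells. Pdgfrb, its most abundant member, was above 5 TPM in 26 of 44 activated and 7 of 17 resident cells. The difference of Pdgfrb was 1.85, and those of the other members ran from 0.119 (Abcc9) to 0.965 (Cspg4). The list for smooth muscle was reached by 10 of 44 activated cells (22.7%, interval 11.5% to 37.8%) and no resident cell. The smooth muscle list shares genes with the contractile list, among them Acta2, Tagln and Smtn, so it is not a finding apart from that list. Its summed TPM had a median of 129 in the activated and 1.3 in the resident cells. Haemoglobin genes, which fibroblasts should lack, were below the filter. Their summed TPM had a median of 0 in both classes, with a mean of 2.40 in the activated and 110 in the resident cells.

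Sex-linked genes differed between the captures. Xist, the transcript of the inactive X chromosome, was above 5 TPM in 19 of 44 activated cells and in 0 of 17 resident cells, and it was called higher at 2.41. A Y-linked gene (Ddx3y, Eif2s3y, Kdm5d or Uty) was above 5 TPM in 14 of 44 activated and 12 of 17 resident cells. In the activated class 16 cells had Xist alone, 11 a Y-linked gene alone, 3 both and 14 neither. The 3 cells with both had 4229 to 4774 genes. No doublets were called from them. With the 11 activated cells that held a Y-linked gene and no Xist, a choice made after seeing the data, 649 genes were higher and 144 lower, of which 381 and 43 are among the 745 and 72. Without the 3 cells with both, 684 were higher and 76 lower.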

How the data were processed

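Heart cells of mice were isolated singly (Fluidigm C1) and sequenced, and 44 activated and 17 resident Tcf21-traced cells of the 185 were compared by the class in their labels. Per the submitters' processing notes, reads were aligned to mm10 with Bowtie 1.0.0 and quantified with eXpress 1.5.1. The authors deposited log2 (TPM+1) for 17171 genes, and the TPM of each cell sum to 999257 to 1000000. Depth per cell is not in the table, so the number of genes above 5 TPM stands in for it.

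Values were read with Python 3.11.15, NumPy 2.4.6, pandas 2.3.3 and SciPy 1.17.1 and drawn with Matplotlib 3.10.9. A gene was compared when above 5 TPM in at least 25% of the cells of either class, and called when the class means were over 2 log2 units apart. A gene was gained when above 5 TPM in at least 50% of the activated and at most 6% of the resident cells, and lost by the mirrored rule. The calls were tested on simulated data made by shuffling each gene's values between the cells, each gene on its own. Most genes given a large shift were called. Genes given none were called too, in both directions together more than the 72 reported as lower. The shuffle does not keep the gene number of a cell, so that count judges neither the higher nor the lower genes. Each class counts as 1 sample, since no label ties a cell to a mouse, so no p-values or standard errors are given. Shares have exact Clopper-Pearson intervals.

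Genes are named by rule: the 15 largest rises and falls among genes above 5 TPM in 50% or more of the class with the higher mean, for each of 33 gene lists the largest rise, the largest fall and the most abundant member compared, Postn, Tcf21, Pdgfra and Acta2, and markers of 9 cell types. Other called members of the lists, and genes singled out beyond this rule, were chosen after their values were seen. The classes, lists and markers were chosen with earlier results of these data known. Promoter motifs were searched in 250 bases before the start in the RefSeq table of build GRCm38.p6, and their share among promoters of the genes in the table was taken as background after both that share and the one among all promoters were seen.

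The alternatives changed the mean, pseudocount, scaling, filter, threshold, minimum TPM, detection rule and cells of each class. Counting from the median of all genes, keeping activated cells with a Y-linked gene and no Xist, and leaving out cells with both were chosen after seeing the data. The cells of other classes enter only the comparison with other classes and these alternatives.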

Additional observations from a re-analysis of the deposited data

How the results depend on the processing

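All 15 of the largest rises kept their sign in every alternative run, and 13 of the 15 largest falls did, the exceptions being Trim6 and AK196015. Across the single genes and lists, 2984 values were unchanged or moved by less than their spread, and 192 moved by more. The spread is that between cells for a gene and that between member genes for a list. The 2984 hold values that could hardly change, from rescaling cells of nearly equal total and from a filter that removed no cell. Markers at 0 in every cell of both classes are counted as well. Another 6 values of called genes changed sign, and the cause was not tested. Ccl2 and Isg20 also came to 0 with medians over cells, so 7 called genes did one or the other. Of the named genes compared but not called, 27 of 53 changed sign or came to 0 in at least 1 alternative, Tcf21 among them. Of the counts of higher, lower, gained and lost genes, 33 stayed within 1.5 times and 33 did not.

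The 745 higher and 72 lower genes became 1353 and 136 with medians over cells, 1837 and 169 at a pseudocount of 0.1, 232 and 30 at a pseudocount of 5, and 1320 and 36 with cells centred on their own median. Counted from the median of all genes, chosen after seeing the data, they were 199 and 299, and in the cells of shared gene numbers, with fewer cells, 324 and 224. At a limit of 1 log2 unit they were 2386 and 341, and at 3 units 170 and 13. The lower genes alone moved by over 1.5 times with means of TPM (233), with the 12 double-negative (Postn-, CD31- and CD45-) resident cells (110), with the 19 untraced cells (115) and with the activated cells with a Y-linked gene and no Xist (144). With means of TPM the median over all genes was 0.129, and 279 of the 745 higher and 31 of the 72 lower genes were shared. The cause was not tested.

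The 31 gained genes became 12 in the cells of shared gene numbers, 76 with the 19 untraced cells, 65 with the 27 Postn-traced cells, 1 at a share of at least 75% (Lox) and 6 against no resident cell. Of the 31, 4 were shared in the cells of shared gene numbers, 14 at 1 TPM, 9 at any value over 0, 8 at 20 TPM, 7 with the 12 resident cells and 7 with the Y-linked cells, so the members depend on the rule. The lost gene became 3 at any value over 0, 0 at 20 TPM, 2 in the cells of shared gene numbers, 2 with the 12 resident cells, 3 with the 19 untraced cells, 0 with the Postn-traced cells, 6 with the Y-linked cells and 0 at 75%. The cause was not tested.

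Of single genes, Trim6 was at 0.17 and Ogn at 0.43 with the Postn-traced cells, AK196015 at 0.58 and Ogn at 0.20 with the 12 resident cells, Gadd45g at -1.25 with means of TPM, and Pi16 at 0.51 with the Y-linked cells. The cause was not tested. Leaving out cells under 50% of the median gene number of their capture removed no cell of either class. No paired analysis was possible because no label ties a cell to a mouse.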

Other observations

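The 29 untraced cells of the scar, 5 of which have only 141 to 264 genes above 5 TPM and are counted in, had a median of 5.17 over the 15 most risen genes and 4.05 over the 15 most fallen genes, and held a median of 12 of the 31 gained genes. The 3 resident Tcf21-positive cells that are also classed as Postn-positive had medians of 4.23 and 8.21 and held a median of 5 gained genes. Neither class enters the comparison of the activated with the resident Tcf21-traced cells.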
